A study of Rattus norvegicus with 108 samples.

Results

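The 180 cells described here carry the label Endothelial in the study's own cell annotation of the dorsal dentate gyrus (dorDG) of the rat. They were chosen by that label alone, and they made up 13.96% of the 1289 annotated dorDG cells in a series of 3517 cells, the other 2228 of which came from the ventral dentate gyrus. The animals were male Long-Evans rats, 2 months old at the start, and carried no transgene according to the labels. They drank water with the antidepressant fluoxetine at 18 mg per kg (group FT) or water alone (group Sham) for 6 weeks. Each replicate was a pool of animals, so a difference between replicates is a difference between pools and p-values rest on the spread between these pools. The FT group held 76 Endothelial cells in 4 replicates (24, 21, 24 and 7 cells in replicates 1, 2, 4 and 5), and FT replicate 3 was not analysed here. The Sham group held 104 cells in 5 replicates (26, 21, 12, 32 and 13 cells in replicates 1 to 5). According to the labels nuclei were captured, but both a cell and a nucleus suspension appear in the study's methods, and which 10x reaction received which is given in neither source.

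The replicate sums of the Endothelial cells held between 45737 and 104938 UMIs, each a count of 1 captured transcript 3′ end, and levels below are UMIs per 10000 of the replicate sum. A cell had a median of 2945 UMIs, with a minimum of 740 and a maximum of 17393. The cells came from 13 reactions, and 38 of the 180 came from the second reaction of the 4 replicates that had a second one. Of all barcodes in dorDG, 3 occurred in more than 1 reaction, and 1 of these belonged to an Endothelial cell. The study wrote 3 limits for its cells, namely a minimum of 1000 genes, a maximum of 20000 UMIs and a mitochondrial share up to 25%. They were met by 132 of the 180 cells, since 47 had fewer genes and 1 had a larger mitochondrial share. Sham replicate 2 stood apart from the others by its oligodendrocyte transcripts and FT replicate 5 had only 7 cells, and differences that Sham replicate 2 carries are given without it where a fit could be made. Counting error is not the only error of a single cell, so the intervals and limits given for cells cover counting error only.

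Brain endothelial cells line the vessels and form the blood-brain barrier. Tight junctions seal the clefts between them, few vesicles cross them, and transporters on both faces carry glucose, amino acids, lipids and hormones inward and pump drugs outward. Wnt signals from neural cells hold this state in place, while Notch, VEGF and BMP signals set the arterial, capillary and venous character along the vessel. Pericytes and smooth muscle cells, called mural cells together, wrap the endothelial tube and are difficult to separate from it. Immediate early genes are transcribed within minutes of a stimulus and encode transcription factors and signal inhibitors, and they are also known to be switched on in brain cells during warm enzymatic dissociation.

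The endothelial label was checked against its markers first. Flt1, a VEGF receptor, was read in 83.9% of the Endothelial cells and at 19.99 ± 4.96 UMIs per 10000 (SD, n = 9), against 2.11 over all other dorDG cells. Its level was 16.9, 20.4, 18.0 and 32.4 in FT replicates 1, 2, 4 and 5 and 17.7, 15.3, 19.9, 20.1 and 19.2 in Sham replicates 1 to 5, so that the groups overlapped and FT replicate 5, with 7 cells, was the highest. Pecam1, an adhesion molecule of the endothelial junction, lay at 4.72 ± 0.996 (n = 9) against 0.702 and was read in 62.2% of the cells. Cells of other types had such UMIs too, as 22.2% of Oligodend1 cells had a Flt1 UMI at a median of 2499 UMIs. The cells annotated Mossy held Flt1 at 14.4 in the 65 with 3 or more mural genes (counted below) and at 36.1 in the other 7. Pecam1 lay at 2.56 and 11.5 in these Mossy cells. After every cell was thinned to 1000 UMIs, which left out 11 of the 180 cells, the Flt1 share was 70.4% in Endothelial and 10.4% in Oligodend1 cells. These comparisons describe the label, because the clusters were drawn from the same genes.

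Both remaining markers given for the type could not carry the label. Cldn5, the claudin that dominates the brain tight junction, was read in 6 of the 180 cells (3.33%), at 0.091 UMIs per 10000 against 0.031 in the other cells. Slco1a4, an organic anion transporter, was not analysed here. Over a list of 25 endothelial genes, 23 occurred in the table, 22 of these were more than 2 times as high in Endothelial as in other dorDG cells, and 17 reached 1 UMI per 10000. Summed over the list, Endothelial cells gave 68.3, Mossy cells 48.3 and the remaining types 1.81 to 5.94. At least 3 of its genes were read in 92.8% of Endothelial and 73.6% of Mossy cells. Cldn5, Cdh5, Robo4, Clec14a and Cd34 stayed under 0.15 although each is a standard endothelial gene, and Cd34 had 0 UMIs in all, where 3 counts would be 0.044 per 10000. The endothelial angiopoietin receptors Tek (3.21) and Tie1 (1.77), the sialomucin Emcn (3.83) and the transcription factors Erg (1.62) and Sox17 (2.04) were read in every replicate sum. The genes furthest above the other dorDG cells also held Itm2a, Csrp2, Icam2 and Abcg2, with Itm2a at 28.1 ± 8.90 against 1.49 and Csrp2 at 11.7 ± 3.64 against 0.497. Mossy cells alone held Itm2a at 11.5 and Csrp2 at 3.82.

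**Figure D1:**
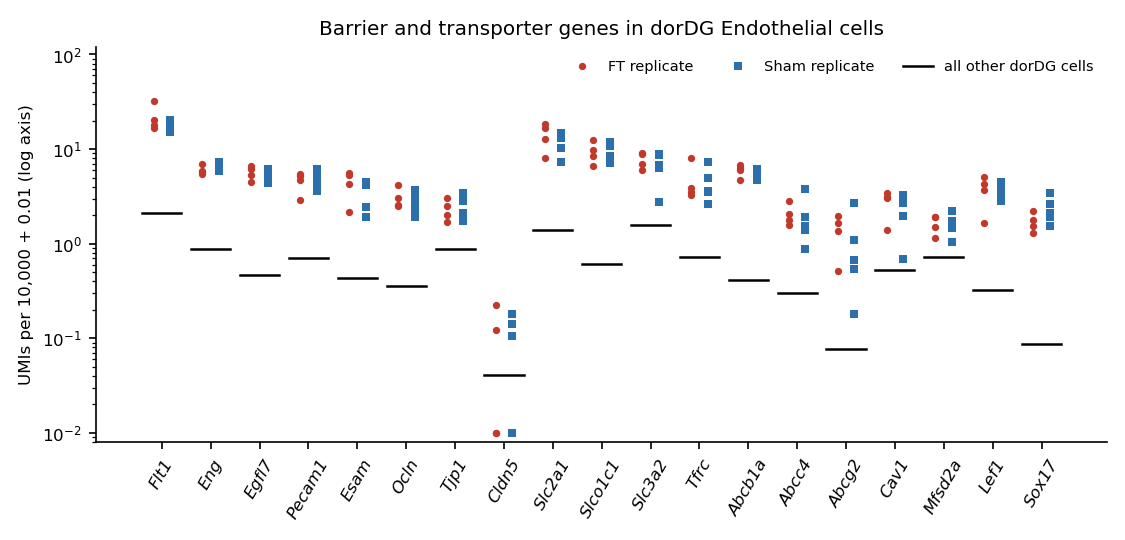
Levels of 19 endothelial, barrier and transporter genes in dorDG Endothelial cells, in UMIs per 10000 of the replicate sum plus 0.01 on a log axis. Red circles are the 4 FT replicates, blue squares the 5 Sham replicates and black lines the level over all other dorDG cells. FT and Sham points mix in each gene, Cldn5 lies near the floor in both groups, and Flt1, Slc2a1 and Slco1c1 are the highest of the genes shown.

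Several junction genes other than Cldn5 reached 1 UMI per 10000. Ocln, a membrane protein of the tight junction strand, lay at 2.86 ± 0.713 against 0.348 in other dorDG cells. Esam, an immunoglobulin-like junction molecule, lay at 3.87 ± 1.39 against 0.420. Tjp1, a scaffold protein that ties the strand to actin, lay at 2.37 ± 0.604 against 0.873. Lsr, which marks the junction where 3 cells meet, lay at 1.84 against 0.141. Jam3 was the exception among the measured junction molecules above 0.5, since it was lower in Endothelial cells (0.531) than in the others (1.36). Of the adherens junction, Pecam1 (above) and Ctnnb1, the catenin that also carries the Wnt signal (3.37 ± 0.758), were read, while the cadherin Cdh5 stayed at 0.130.

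Most cells held UMIs of the inward carriers of glucose and thyroid hormone. Slc2a1, the glucose carrier of the barrier, was 16.9, 18.6, 12.8 and 7.95 in FT replicates 1, 2, 4 and 5 and 13.2, 7.38, 14.6, 13.7 and 10.4 in Sham replicates 1 to 5. The groups overlapped, and the lowest values came from FT replicate 5 and Sham replicate 2. Slc2a1 was read in 88.3% of the Endothelial cells, against 20.5% of Oligodend1 cells, and after thinning in 71.6% against 6.25%. Slco1c1, the carrier of thyroid hormone, was 12.4, 8.40, 6.55 and 9.67 in FT and 10.8, 7.20, 8.53, 11.8 and 8.55 in Sham replicates. The same gene was read in 83.3% of the Endothelial cells, and its level over other dorDG cells was 0.599. Astrocytes are the other brain cell known to use Slco1c1, and AstroSub1 cells had it at 1.90. Mossy cells had Slco1c1 at 2.97.

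The remaining carriers were lower and also sat above the pool of other dorDG cells. The list of inward carriers summed to 64.8 in Endothelial, 37.5 in Mossy and 24.0 in AstroSub1 cells. The large neutral amino acid carrier is a pair of subunits, of which the heavy chain Slc3a2 lay at 7.13 ± 2.05 (1.56 elsewhere) and the light chain Slc7a5 at 3.17 ± 1.41 (0.378 elsewhere). Tfrc, the transferrin receptor that brings in iron, lay at 4.52 ± 1.88 (0.715 elsewhere). The cationic amino acid carrier Slc7a1 lay at 3.49 and the organic anion carrier Slc22a8 at 2.39. Among the inward carriers and receptors that were lower in Endothelial than in other dorDG cells were Lrp1 (0.281 against 1.60), Slc1a1 (0.653 against 0.863), Slc6a9 (0.063 against 0.607) and Slc29a1 (0.042 against 0.066).

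Among the ATP-driven efflux pumps, Abcb1a, which encodes P-glycoprotein, gave 6.32, 5.93, 6.80 and 4.73 in FT and 4.67, 5.49, 6.12, 5.53 and 5.39 in Sham replicates. The groups overlapped over a narrow range, at 5.66 ± 0.706 (n = 9), and Abcb1a was read in 71.1% of the cells. Abcg2, the breast cancer resistance protein, lay at 1.17 ± 0.806 against 0.068 in other dorDG cells and ranged from 0.172 in Sham replicate 2 to 2.67 in Sham replicate 4. Abcc4 lay at 1.96 ± 0.869 against 0.288. The list of efflux pumps summed to 11.2 in Endothelial, 5.88 in Mossy and 5.41 in InhibNeuron cells. Abcc5 was no marker of these cells, with 1.35 in Endothelial and 1.81 in other cells, and Abcb1b, the paralog of Abcb1a, lay at 0.1 against 0.390. Reads shared by the paralogs Abcb1a and Abcb1b could have been split between them, which makes the level of each uncertain.

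Low vesicle traffic is a hallmark of the barrier. Mfsd2a, the lipid carrier that suppresses it, lay at 1.60 ± 0.380 against 0.706. Caveolar coat genes were present as well, with Cav1 at 2.48 ± 0.941 (0.515 elsewhere), Cav2 at 1.27 ± 0.400 (0.363 elsewhere) and Prkcdbp, an older symbol of Cavin3, at 1.14 ± 0.701 (0.092 elsewhere). Plvap, the diaphragm protein of fenestrated vessels outside the barrier, had 0 UMIs in all 180 cells, where 3 counts would have been 0.044 per 10000 and a share of 1.67% of the cells. Sham replicate 2 had the lowest Cav1 level, 0.686, against 1.38 to 3.44 in the other replicates. The list of vesicle traffic summed to 7.94 in Endothelial, 6.27 in OPC (oligodendrocyte precursor) and 5.73 in Mossy cells.

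Of the signals that maintain the barrier, the Wnt target and effector Lef1 lay at 3.75 ± 1.01 (0.313 elsewhere), Sox17 at 2.04 ± 0.658 (0.077 elsewhere) and Tspan12, a co-receptor of the Norrin pathway, at 1.12 ± 0.464 (0.356 elsewhere). Apcdd1 was low but above the other cells (0.599 against 0.051). Axin2 (0.053 in both sets) and the receptor Fzd4 (0.019) gave almost no UMIs. Downstream of BMP signals, Id1 lay at 6.46 ± 1.03 (0.565 elsewhere) and Id3 at 5.79 ± 2.83 (1.2 elsewhere), and the BMP co-receptor Eng at 6.23 ± 0.578 (0.880 elsewhere). The VEGF receptor Kdr lay at 1.71 ± 0.719, and the ligand Vegfa at 0.012, with 0.372 in other dorDG cells. Notch receptors were low, with Notch1 at 1.19 ± 0.401 and Notch4 at 0.808 ± 0.314. The Wnt and barrier list summed to 15.3 in Endothelial and 10.7 in Mossy cells. The VEGF, Notch and BMP list summed to 65.1 and 54.2 in these types.

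Arterial, capillary and venous genes were then read, since the label does not separate the segments. Capillary genes lay well above their levels in the pool of other dorDG cells, with Car4 at 8.70 ± 3.80 (0.620 elsewhere), Cxcl12 at 5.74 ± 2.82 (0.504 elsewhere) and Spock2 at 4.62 ± 1.10 (0.539 elsewhere). The capillary list, which also holds Rgs5, summed to 33.5 in Endothelial and to 22.6 in Mossy cells. Car4 is a surface carbonic anhydrase and Cxcl12 a chemokine. Of the arterial genes, the Notch ligand Dll4 lay at 1.02 ± 0.877 (0.112 elsewhere) and the phosphatase Alpl at 0.827 ± 0.289 (0.126 elsewhere). Clu (0.803 against 3.37) and Mgp (0.581 against 0.618), which also serve as arterial genes, were not above other dorDG cells, and Gkn3 had 0 UMIs. Of the venous genes, the clotting factor carrier Vwf lay at 1.47 ± 0.555 (0.170 elsewhere), Lcn2 at 1.08 ± 1.03 (0.057 elsewhere) and Slc38a5 at 0.649 (0.031 elsewhere). Tmsb10, Icam1 and Vcl, listed as venous too, were nearly as high in other cells (13.1 against 12, 1.91 against 1.65 and 1.54 against 1.30), and Sele had 0 UMIs, with the limit given for Cd34.

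The segment genes were counted cell by cell after thinning to 1000 UMIs. Of 169 thinned cells, 37 (21.9%) had a UMI of Alpl, Bmx, Dll4, Efnb2, Gja4 or Sema3g, 50 (29.6%) of Lcn2, Slc38a5 or Vwf, and 77 (45.6%) of Mfsd2a, Slc16a1 or Tfrc. Arterial and venous genes met in 10 of these cells, where independent shares would give 10.9, and 92 cells had neither. Without thinning the arterial count was 80 of 180 cells, the venous count 100 and the capillary count 140. Both arterial and venous genes were read in 48 cells, where independent counts would give 44.4. The thinned venous share was 11.8% in Mossy cells, 2.78% in Oligodend1 cells and 0 of 147 in InhibNeuron cells, which allows a share of up to 2.04%. The thinned arterial share was 27.9% in Mossy cells, above the Endothelial share, and 8.65% in Microglia1 cells. It was 4.17% in Oligodend1, 4.08% in InhibNeuron and 2.04% in AstroSub1 cells. The thinned capillary share was 20.1% in Oligodend1, 19.1% in Mossy, 17.3% in AstroSub1, 15.4% in Microglia1 and 12.2% in InhibNeuron cells. Shares of this kind mark cells with a UMI, and a cell without one was not shown to lack the transcript.

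Mural transcripts were the main admixture to look for. Pdgfrb, the PDGF receptor of pericytes, lay at 0.482 ± 0.345 in Endothelial cells and at 3.23 in the 72 dorDG cells that the annotation calls Mossy. Vtn lay at 0.598 ± 0.725 against 7.89 in those cells, Rgs5 at 0.652 ± 0.451 against 4.43, the contractile genes Myl9 at 0.375 against 4.82 and Tagln at 0.066 against 6.79. The cells named Mossy therefore held more of the mural transcripts than the Endothelial cells did. Of 20 pericyte and smooth muscle genes, Rgs5 left out because capillaries also use it, at least 3 were read in 23 Endothelial cells (12.8%) and in 65 of the Mossy cells (90.3%). Types without a mural identity had such cells too, 10.9% in AstroSub1, 15.0% in InhibNeuron and 23.2% in Oligodend2, the last at a median of 7050 UMIs, so the Endothelial share lay within their range. The numbers of Endothelial cells with 0, 1 and 2 mural genes were 80, 56 and 21, and 4 cells reached 8 or 9.

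Depth mattered for this count. The 23 cells had a median of 4704 UMIs and the other 157 Endothelial cells one of 2717, and after thinning to 1000 UMIs 3 of 169 Endothelial cells (1.78%) and 43 of 68 Mossy cells (63.2%) still had 3 mural genes. At least 3 identity genes were read in 22 of the 23 deeper cells. Their level was 21.7 against 18.9 in the other Endothelial cells for Flt1, 3.84 against 5.04 for Pecam1 and 10.9 against 13.9 for Slc2a1. Pdgfrb (1.88 against 0.130) and Vtn (2.61 against 0.111) are on the list that chose these cells, so their levels are given as a description only. By replicate, the share with 3 mural genes was 8.33%, 4.76%, 12.5% and 28.6% in FT and 11.5%, 9.52%, 8.33%, 12.5% and 38.5% in Sham replicates. FT replicate 5 and Sham replicate 5 were the highest and also had the deepest cells, with median UMIs of 4413 and 4538, and after thinning the shares were 0 of 7 cells, which allows up to 42.9%, and 7.69%. No doublet caller was run on so few cells, and whether these droplets held an endothelial and a mural cell together was not tested.

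**Figure D2:**
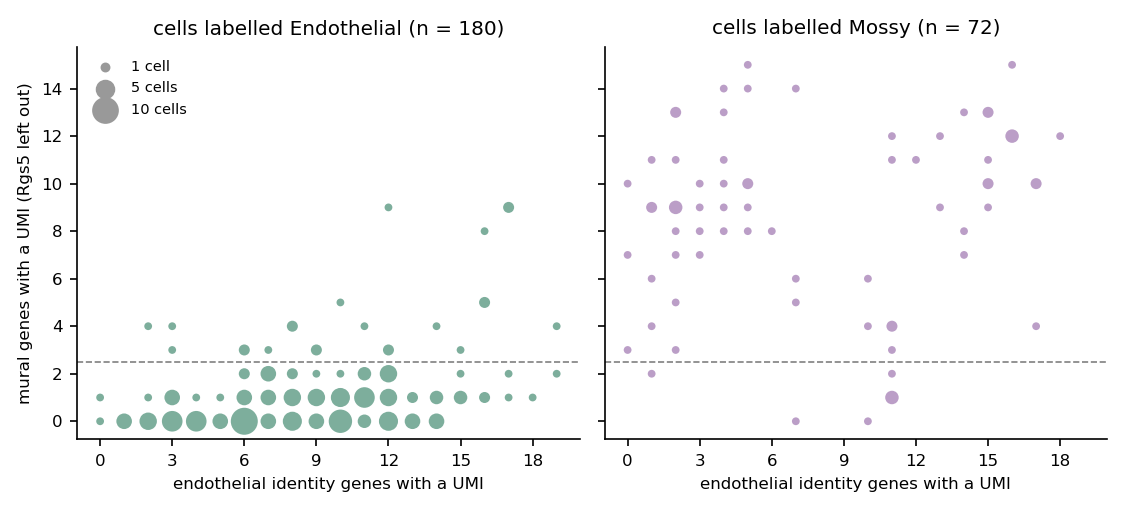
Endothelial identity genes (x axis) and mural genes without Rgs5 (y axis) with at least 1 UMI in each cell, for the 180 cells labelled Endothelial and the 72 labelled Mossy in dorDG. The circle area gives the number of cells, and the dashed line marks the limit of 3 mural genes. Most Endothelial cells lie below the line, with 23 above it, whereas 65 Mossy cells lie above it at low and at high numbers of identity genes.

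Transcripts of other cell types were read as well, and whether they came from free RNA or from doublets was not tested. Mbp, the myelin basic protein gene of oligodendrocytes, had a UMI in 98.3% of the Endothelial cells. Its level was 37.8, 44.8, 51.7 and 64.9 in FT and 55.0, 202, 26.0, 31.4 and 26.8 in Sham replicates, and Sham replicate 2 was far above the rest. Other types that do not make myelin had it as well, with 47.3 in AstroSub1 and 31.7 in InhibNeuron cells, against 141 in Oligodend1. The 10 oligodendrocyte genes summed to 263 in Sham replicate 2 and to 35.4 to 88.1 in the other replicates. Astrocyte genes were low, at 4.69 ± 1.90 over 10 genes against 136 in AstroSub1 cells, and microglial genes summed to 4.92 ± 2.27 over 11. Macrophage genes (0.221 over 5), fibroblast genes (0.486 over 9) and precursor genes of oligodendrocytes (0.391 over 6) were near 0.

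Blood transcripts were read in all 9 replicates and a choroid plexus transcript in 3. Hemoglobin UMIs made up 8.25, 21.2, 14 and 3.22 per 10000 in FT and 14.8, 11.3, 4.37, 104 and 0.789 in Sham replicates. In FT replicate 2, 141 of the 189 hemoglobin UMIs lay in 1 cell. In Sham replicate 4, 1033 of the 1091 hemoglobin UMIs lay in 1 cell, and the other 31 cells of that replicate had 6.23 per 10000, a value computed after the data had been seen. Hemoglobin genes are near-identical copies, and the division of reads between them is uncertain. Ttr, the transthyretin of the choroid plexus, was 20.6 in FT replicate 4, 1.29 in FT replicate 5 and 6.00 in Sham replicate 4, and 0 in the other 6 replicates. Other dorDG cells of these replicates had the same level (22.0, 0.968 and 5.76).

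Immediate early genes were read in these cells at levels like those of the endothelial genes. Of 33 listed, 30 were in the table. Fos, the founding member of the family, was 16.1, 9.74, 17.2 and 11.8 in FT and 9.92, 4.46, 20.3, 8.29 and 8.28 in Sham replicates. Btg2, an inhibitor of proliferation, was 11.7, 11, 12.3 and 12.9 in FT and 7.44, 6.69, 15.3, 10.2 and 10.8 in Sham replicates. The transcription factors Fosb (7.04), Atf3 (6.95), Klf4 (6.59), Nr4a1 (5.60) and Egr1 (5.08), the phosphatase Dusp1 (6.14) and the mRNA decay factor Zfp36 (6.87) followed on average over the 9 replicates. Junb, Ier2, Egr3, Npas4 and Rhob stayed under 0.05. Summed over the list, the level was 73.1, 94.8, 121 and 83.6 in FT and 61.0, 53.9, 106, 61.0 and 91.1 in Sham replicates.

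Promoters of immediate early genes are known to carry stimulus elements, and stretches of 4 of them are shown because the reactions are compared on these genes next. Of the 30 genes in the table, 19 had a RefSeq promoter on the rat assembly GRCr8. Within 250 bases before the start, on either strand, the cAMP element TGACGTCA was found in 4 of the 19 (21.1%) and in 466 of 27457 promoters (1.70%), or 76 of 2530 promoters of the genes tested below (3.0%). The serum element called the CArG box was found in another 4 (21.1%), in 412 of all promoters (1.5%) and in 30 of those of tested genes (1.19%). Each element was searched by its letters alone, and a match is not evidence of binding. The stretches around 4 of these matches are shown 5′ to 3′ on the gene's strand, with the element in capitals. They lie at chr13:48087872-48087901 (minus strand) for Btg2, chr10:17184719-17184748 (plus strand) for Dusp1, chr1:92799121-92799150 (minus strand) for Zfp36 and chr17:69458660-69458689 (minus strand) for Klf6.
Btg2: ttcccaataaTGACGTCAgtgagcgatgac
Dusp1: gcagggcgggTGACGTCAccacccggtcac
Zfp36: ccgggccgccCCATAAAAGGcgaaagctcc
Klf6: aataggaaggCCTTTAATGGagaggctcgg
The Dusp1 element ends 117 bases and the Zfp36 element 23 bases before the start. Ier2, whose promoter also holds TGACGTCA, lay at 0.044 UMIs per 10000.

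The level of this group followed the 10x reaction. In the 4 replicates with both reactions, the summed level was 89.6, 127, 86.4 and 174 in the first and 14.4, 6.35, 9.01 and 3.17 in the second reactions (FT replicates 1 and 2, Sham replicates 1 and 2). The first reaction was higher in 4 of 4 replicates, which an exact sign-flip test can take no lower than p = 0.125. Fos was 20.6, 13.2, 14.8 and 15 in the first and 0 in all second reactions, where 3 counts would be 1.88, 1.27, 0.872 and 0.732. Of 18 immediate early genes with a mean of at least 0.5 in either kind of reaction, 12 were higher in the first reaction of all 4 replicates, and 0 in the second of all 4. Over all 5164 genes of that level, 832 (16.1%) were higher in all first and 773 (15.0%) in all second reactions.

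The genes whose promoter stretches are shown above were read the same way, and 3 of these 4 were higher in the first reaction of every replicate. Btg2 was 15, 14.8, 10.1 and 22.0 in the first and 0, 0.423, 2.03 and 0.244 in the second reactions. Dusp1 was 4.58, 11.9, 6.53 and 10.4 in the first and 0.627, 0, 1.45 and 0.244 in the second. Zfp36 was 10.4, 16, 7.38 and 18.5 in the first and 1.88, 0, 0.291 and 0 in the second. Klf6 broke the pattern in 1 replicate, with 1.58 in the first and 1.88 in the second reaction of FT replicate 1.

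Heat shock genes, which encode chaperones, split in the same way. Their sum was 82.9, 140, 74.1 and 220 in the first and 18.8, 14.4, 21.5 and 8.54 in the second reactions, and 9 of 10 genes of sufficient level were higher in all 4 first reactions. Ribosomal protein genes and hemoglobin genes were also higher in the first reaction of 4 of 4 replicates. The endothelial identity genes were not, with 57.9, 68.7, 61.6 and 54.3 in the first and 60.8, 78.7, 90.4 and 49.0 in the second reactions. Slco1c1 (12.2, 7.61, 6.25 and 3.47 in the first, 13.2, 10.6, 20.1 and 8.78 in the second) and Abcb1a (4.75, 5.79, 2.27 and 5.20, then 11.9, 6.35, 9.59 and 5.61) were higher in the second reaction of all 4. So were 3 of 20 inward carriers (15%) and 1 of 6 efflux pumps (16.7%) of sufficient level in all. These shares were near the 15% of all genes of that level. Slc2a1 was higher in the first reaction of 3 of 4 replicates. The pericyte list (0.578 to 2.41 in the first, 3.13 to 5.37 in the second) and the neuron list (2.31 to 3.81, then 6.77 to 15.9) were higher in the second reaction of all 4 as well, and so was the astrocyte list (1.73 to 8.83, then 6.10 to 13.8). The pericyte sums rest on few UMIs, as 3 counts would be 1.73 in the first reaction of Sham replicate 2. In the second reaction of FT replicate 1 they would be 1.88. Of 13 pericyte genes 2 had a sufficient level, and 0 of these were higher in all second reactions. The microglia list was higher in the first reaction of all 4 (2.59 to 11.6, then 0 to 3.17). The labels do not say how the reactions differ, and the part of the suspension in this split was not tested.

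**Figure D3:**
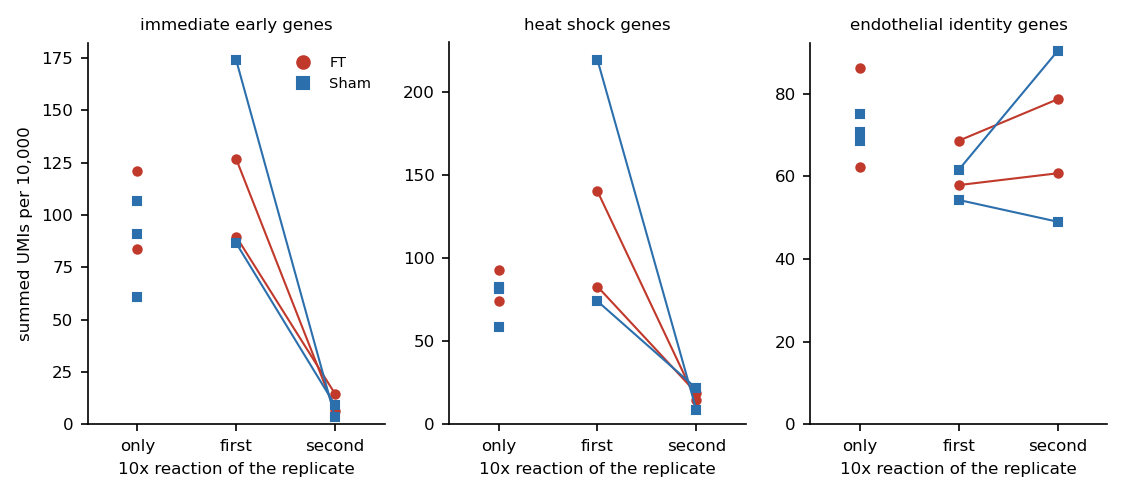
Summed UMIs per 10000 of the immediate early, heat shock and endothelial identity lists in dorDG Endothelial cells, by 10x reaction. Points under only are the 5 replicates with 1 reaction, and lines join the first and second reaction of the 4 replicates with both, with FT in red circles and Sham in blue squares. The immediate early and heat shock sums are lower in the second reaction of each pair, and the identity sum is higher there in 3 of 4.

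Single cells showed the same. At least 5 immediate early genes were read in 39 of 54 cells (72.2%) of the first reactions, 2 of 38 (5.26%) of the second and 64 of 88 (72.7%) of the replicates with 1 reaction. The median UMIs of these cells were 3264, 2282 and 3492. After thinning to 1000 UMIs the shares were 53.1% of 49, 0 of 36 (3 cells would be 8.33%) and 52.4% of 84. The same split was seen outside the endothelium, with a summed level over first and second reactions of 109 and 7.39 in Mossy, 69.4 and 2.26 in Microglia1 (2 cells in the second) and 9.85 and 0.970 in InhibNeuron cells. The Endothelial level was 107 in the first and 7.13 in the second reactions, next to that of Mossy cells. Oligodend2 cells were higher still in the first reactions, at 118, with 1 cell in the second.

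FT was compared with Sham first on the cells themselves, by a two-sided exact permutation test over the replicates that allows no p under 0.0159. Endothelial cells made up 16.8%, 10.7%, 18.3% and 7.07% of the FT and 11.3%, 15.2%, 12%, 23.7% and 11.2% of the Sham dorDG cells. The means were 13.2% ± 5.26 (n = 4) and 14.7% ± 5.30 (n = 5), with overlapping ranges and exact permutation p = 0.730. Wilson 95% intervals of these shares reached from 3.47% to 13.9% for FT replicate 5 and from 17.3% to 31.5% for Sham replicate 4, the lowest and the highest. Among cells with at least 2% ribosomal UMIs the difference in the Endothelial share, FT minus Sham, was −12 percentage points (exact permutation p = 0.0476, unadjusted). That limit removed 7.78% of the Endothelial cells and from 9.35% (Microglia1) to 80% (ExcitNeuron) of each other type. It thus changed mainly the cells that the share is taken of, and their part in the difference was not tested. The median UMIs per cell (3012 ± 993 in FT and 3386 ± 961 in Sham), genes per cell (1640 ± 522 and 1787 ± 397), mitochondrial share (7.78% ± 0.822 and 7.79% ± 2.49) and ribosomal share (6.70% ± 2.01 and 6.44% ± 1.69) gave exact permutation p-values from 0.619 to 0.984. Adjusted over these 5 comparisons, each p was 0.984.

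No gene was called between FT and Sham in the Endothelial cells. Replicate sums were tested for 3731 genes by edgeR's quasi-likelihood test with Benjamini-Hochberg adjustment, and a gene was called where the adjusted p did not exceed 0.2 and the log2 difference reached 0.32 in size. The lowest adjusted p was 0.823, the share called was 0.0%, and DESeq2 called 0 genes too. At an unadjusted p under 0.05, edgeR counted 94 genes higher (2.52%) and 124 lower (3.32%) in FT, and DESeq2 counted 124 in all. The replicate ranges did not overlap for 30 genes higher (0.804%) and 55 lower (1.47%) in FT. Over all genes tested, 1881 had a positive and 1850 a negative log2 fold change, with a median of 0.0057.

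The 5 genes of lowest p in each direction are given as values, none of them called in this fit. Swap70, a guanine nucleotide exchange factor that binds actin, was 1.79, 3.47, 1.38 and 4.51 in FT and 1.34, 0.515, 0.875, 0.667 and 0.526 in Sham replicates. All FT values lay above all Sham values, though FT replicate 4 and Sham replicate 1 were close, and the log2 difference was 1.76 ± 0.41 (SE, edgeR unadjusted p = 0.00027). Rtn1, a reticulon of the endoplasmic reticulum known from neurons, was 40.5, 28.7, 14.2 and 47.7 in FT and 17.1, 16.8, 12, 13 and 18.3 in Sham replicates. Here FT replicate 4 lay among the Sham values, and the log2 difference was 1.09 ± 0.29.

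Dnajb1, a heat shock co-chaperone, was 3.85, 3.02, 6.17 and 3.65 in FT and 2.38, 1.03, 2.19, 1.05 and 2.5 in Sham replicates. Its ranges did not overlap, and the log2 difference of 1.22 ± 0.34 was 1.01 in first reactions alone and 0.76 without the cells of 3 or more mural genes. Cd164, a sialomucin, was 0.550, 1.01, 0.629 and 1.29 in FT and 0.095, 0.343, 0.437, 0.191 and 0.131 in Sham replicates. RT1-A2, a class I histocompatibility gene whose reads its close paralogs can share, was 2.47, 6.94, 5.67 and 7.31 in FT and 3.43, 1.2, 1.97, 3.24 and 2.76 in Sham replicates. FT replicate 1 lay within the Sham range of RT1-A2.

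In the lower direction, Adk, the adenosine kinase, was 0.137, 0.448, 0.252 and 0.215 in FT and 1.62, 1.2, 1.53, 0.572 and 1.31 in Sham replicates. Its ranges did not overlap, with a log2 difference of −2.05 ± 0.51, but the FT values were 1 to 4 UMIs a replicate. Ptn, the growth factor pleiotrophin, was 1.51, 1.01, 2.01 and 0.645 in FT and 4.48, 1.37, 0.656, 11.2 and 6.05 in Sham replicates, so that Sham replicates 2 and 3 lay with FT. Fnbp1 was 0.687, 0.896, 0.629 and 0.215 in FT and 2.77, 4.46, 1.09, 1.33 and 1.05 in Sham replicates, and its log2 difference went from −1.68 to −1.28 without Sham replicate 2. The neuronal genes Lsamp and Syt1 completed the set.

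Both neuronal genes were highest in Sham replicate 2. Lsamp was 1.24, 0.896, 0.378 and 1.29 in FT and 2.1, 8.41, 1.97, 1.43 and 2.5 in Sham replicates. Syt1, the synaptic calcium sensor, was 1.24, 0.896, 0.504 and 1.5 in FT and 2.1, 6.52, 1.75, 1.91 and 2.24 in Sham replicates. Without Sham replicate 2 the log2 differences went from −1.77 to −1.08 for Lsamp and from −1.49 to −0.99 for Syt1. The neuron list summed to 11.8 in Sham replicate 2 and to 2.77 to 5.47 in the others, and the part of neuronal RNA in these differences was not tested.

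**Figure D4:**
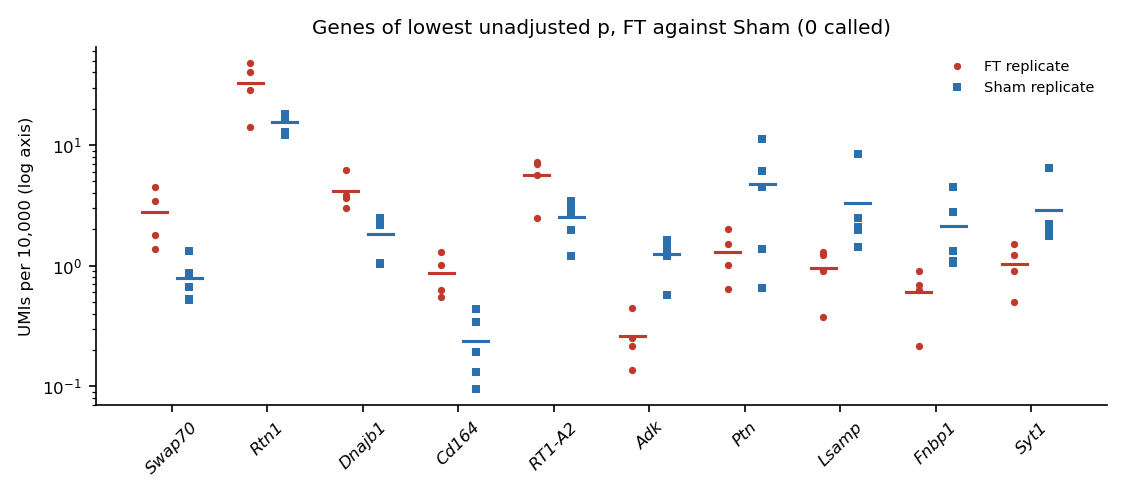
The 5 genes of lowest unadjusted p higher in FT (left) and the 5 lower in FT (right), in UMIs per 10000 of the replicate sum on a log axis. Red circles are FT replicates, blue squares Sham replicates and horizontal lines the group means. The groups are apart for Swap70, Dnajb1, Cd164, Adk, Lsamp, Fnbp1 and Syt1, and overlap for Rtn1, RT1-A2 and Ptn. None of the 10 genes was called in the main fit.

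The log2 differences of the barrier genes lay on both sides of 0. Of 17 identity genes tested 7 had a positive and 10 a negative log2 difference, with a median of −0.07 and 0 of 17 at an unadjusted p under 0.05. Of 20 inward carriers 11 were positive, the median was 0.03, and again none reached that p, as for the 4 efflux pumps (3 positive, median 0.12). The log2 difference was 0.26 ± 0.24 for Flt1, 0.29 ± 0.28 for Slc2a1, −0.01 ± 0.27 for Slco1c1 and 0.16 ± 0.27 for Abcb1a. Of 9 tight junction genes, Cgnl1 (2.52 ± 1.41 in FT and 1.11 ± 0.496 in Sham) lay under p = 0.05 on the higher and Jam3 (0.205 ± 0.182 and 0.792 ± 0.566) on the lower side. Jam3 was highest in Sham replicate 2 (1.72 against 0.219 to 0.789 in the other Sham replicates) and stood at 3.95 in Oligodend1 cells, and without that replicate its mean was too low to be tested. Jup (0.991 ± 0.468 and 0.274 ± 0.210) did so among 5 adherens junction genes and Ehd4 among 5 genes of vesicle traffic, both higher in FT. Each of these had an adjusted p of 0.823 or 0.826 by edgeR. Over all genes tested, 2.52% lay under an unadjusted edgeR p of 0.05 on the higher and 3.32% on the lower side.

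No signalling or segment gene was called either. Of 8 Wnt and barrier regulators 6 were negative, with a median of −0.27, and Ctnnb1 was 2.75 ± 0.460 in FT and 3.87 ± 0.545 in Sham (−0.47 ± 0.29). Of 15 VEGF, Notch and BMP genes 7 were positive and 8 negative. All 4 arterial genes tested were positive (median 0.47), 5 of 9 capillary genes (0.02) and 5 of 7 venous genes (0.48), and Tmsb10 alone of these lay under p = 0.05. Over all genes tested, 1881 of 3731 were positive and 2.52% lay under that p on the higher side. Tmsb10 was 12.8, 25.3, 15.7 and 14.6 in FT and 8.39, 5.49, 7.43, 17.3 and 10.5 in Sham replicates, and other dorDG cells held it at 12. Venous genes summed to more in the first than in the second reaction in 4 of 4 replicates (16.8 to 42.6 against 9.30 to 16.3).

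Most immediate early genes had a positive difference, and none was called. Of 18 tested, 15 had a positive log2 difference, beside 1881 of all 3731 genes tested, with a median of 0.22. An unadjusted p under 0.05 was reached by 2 of the 18 (11.1%), beside 2.52% of all genes in that direction. Zfp36 was 8.52, 11.8, 10.6 and 5.59 in FT and 5.05, 5.49, 5.03, 4.38 and 5.39 in Sham replicates, with no overlap and a log2 difference of 0.89 ± 0.28. In first reactions alone its groups overlapped (5.59 in FT replicate 5 and 18.5 in Sham replicate 2), and the difference was 0.61 with an unadjusted edgeR p of 0.0858. Dusp1 was 3.71, 8.73, 11.1 and 9.24 in FT and 4.86, 3.26, 5.90, 2.95 and 5.52 in Sham replicates, with FT replicate 1 inside the Sham range and a difference of 0.90 ± 0.32, or 0.70 in first reactions alone. Both had an adjusted p of 0.823 by edgeR. In the first reactions alone, the list summed to 105 ± 21.8 in FT (n = 4) and 104 ± 42.5 in Sham (n = 5). Of the second-reaction cells, 14 were FT and 24 Sham.

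Heat shock genes gave 8 of 9 positive, beside 1881 of all 3731 genes tested, a median of 0.27 and 1 gene under p = 0.05, Dnajb1. In the first reactions alone, the heat shock list summed to 97.6 ± 29.5 in FT (n = 4) and 103 ± 65.7 in Sham (n = 5). Among genes of leukocyte adhesion and cytokine response, 7 of 10 were positive, and Nfkbia, Irf1 (1.46 ± 1.08 in FT and 0.659 ± 0.0973 in Sham) and Ccl2 (1.09 ± 1.68 and 0.239 ± 0.331) lay under p = 0.05 on the higher side. These were 3 of 10 genes, beside 2.52% of all genes tested in that direction. Ccl2 rested on FT replicate 2, at 3.58 against 0 to 0.645 in the other FT and 0 to 0.668 in the Sham replicates, and without it the gene was too low to be tested. Nfkbia, the inhibitor of NF-kB, was 8.52, 14.9, 10.6 and 5.80 in FT and 5.63, 2.57, 6.12, 3.05 and 10.1 in Sham replicates. In the paired reactions it was higher in the first of 4 of 4 replicates, with 9.86, 18.9, 7.38 and 4.04 in the first and 3.76, 3.81, 2.03 and 1.95 in the second. The glucocorticoid-induced gene Tsc22d3 (1.81 ± 0.969 in FT and 0.909 ± 0.496 in Sham) lay under p = 0.05 among 8 response genes, of which 7 were positive. Over all genes tested, 2.52% lay under that p on the higher side and 1881 of 3731 were positive.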

How the data were processed

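Single-cell 3′ libraries (10x v2) of the dorsal dentate gyrus were counted by the authors with Cell Ranger 2.1.0, and the deposited table holds UMI counts, as whole numbers per gene and cell, with an annotation by Seurat 3. The submitters' processing notes name build rn5. Cells annotated Endothelial (180) were summed per replicate, with both reactions of a replicate together. The members, gene lists and tests were chosen with earlier results of these data known. Testing covered the 3731 genes whose mean reached 0.5 UMIs per 10000 and used edgeR 4.0.16 (TMM, quasi-likelihood test, Benjamini-Hochberg) in R 4.3.3. Because the values are counts, edgeR replaced the t-test on replicate expression profiles that the study used. DESeq2 1.42.0 and limma 3.58.1 were alternatives, and the procedure was tested on simulated counts. Cell measures were compared by exact permutation tests (scipy 1.17.1). Named genes were the 5 of lowest p in each direction and, per list, the 4 of highest level, and for other cell types the 3 of highest level. Further genes were named after their values were seen. Replicates of a group differed by more than counting noise (chi-square per degree of freedom 1.93 to 5.37 over 16 pairs). Thinned cells were drawn to 1000 UMIs, and limits for a count of 0 use 3 counts. The authors' doublet treatment is not given in the sources used here. Promoters were taken from RefSeq (GRCr8), a later assembly than the one counted on. Some items are not reported here.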

Additional observations from a re-analysis of the deposited data

Results flagged for a closer look

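In a group of 4 or 5 replicates, a replicate was marked when its gap to the nearest other value was a larger part of the group's range than Dixon's 95% limit allows. Of 90 groups examined 13 were marked, where chance marks about 1 in 20. Sham replicate 2 accounted for 6: its oligodendrocyte list summed to 263 UMIs per 10000 (next 84.4) and its neuron list to 11.8 (next 5.47), its Lsamp level was 8.41 (next 2.5) and its Syt1 level 6.52 (next 2.24), and its endothelial identity list was the lowest at 50.6 (next 58.5 overall and 68.7 in Sham), as was its adhesion and cytokine list at 29.3 (next 50.3 in Sham). Of its 21 cells 15 came from the second reaction, in which the oligodendrocyte list summed to 314 and the neuron list to 15.9, against 144 and 2.31 in the first.

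Sham replicate 4 had an erythroid list of 104 (next 14.8), held almost wholly by 1 cell with 11914 UMIs, and a choroid and ependymal list of 6.00 (next 0.286). FT replicate 4 had a choroid and ependymal list of 21.0 (next 1.5) and a glucocorticoid list of 16.5 (next 12). Sham replicate 5 had the largest share of cells with 3 or more mural genes, 38.5% (next 12.5%), and a vasoactive list of 7.89 (next 4.96). FT replicate 5 had a smooth muscle list of 1.29 (next 1.01). The values of the choroid list moved with Ttr in the other cells of the same replicates, and the share of Sham replicate 5 was 7.69% after thinning.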

How the results depend on the processing

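No gene was called between FT and Sham under 22 of 23 alternatives, with leave-one-out counts of 0 to 0. With no filter on low counts 17 genes of 16013 were called (5 higher and 12 lower in FT, lowest edgeR adjusted p 2.97e-06). They included Swap70 and Ptn of the 10 genes of lowest p, and the hemoglobin genes Hbb and Hbb-b1. With a replicate block, 0 genes passed (250 at an unadjusted p under 0.05, lowest adjusted p 0.235), and the numbers were not taken to pair the samples, since same-numbered deviations correlated at 0.08, 0.12, 0.15 and −0.005 for numbers 1, 2, 4 and 5, although 3 of 4 correlated best with their own and the second reactions belong to numbers 1 and 2 in both groups. For the 5 cell measures the block was a sign-flip test over 4 shared numbers. That test allows no p under 0.125, so it could not have changed a call. The difference in the share of cells was −12 points (exact permutation p = 0.0476) among cells of at least 2% ribosomal UMIs, a limit that removed mainly cells of other types. Over all cells it went to 0.568 points without FT replicate 5 and 0.776 without Sham replicate 4 (leave-one-out −3.18 to 0.776). UMIs per cell went to 361 with the mean over cells (leave-one-out −842 to −62.6) and genes per cell to 39.5 without FT replicate 2 (−381 to 39.5). The mitochondrial difference went to 0.359 points with the mean over cells and to 0.104, 0.315, 0.136 and 0.994 without FT replicates 1 and 5 and Sham replicates 1 and 2 (−0.582 to 0.994). The ribosomal difference went to −0.375 without FT replicate 4 and −0.368 without Sham replicate 2 (−0.375 to 1.2). The cause of these reversals was not tested, and the first estimates were small beside the spread. The 10 genes of lowest p kept their sign in all 215 alternative values. They were chosen by p from these same counts, and at least 1 cell per replicate gave the main fit again, so the count says little of their stability. Of 1259 values of 58 named list genes, 25 moved by at least the SD between replicates of the log2 level, pooled within the groups. Depth limits the rest: replicate sums of 45737 to 104938 UMIs put 3 counts at 0.286 to 0.656 per 10000, so that genes such as Cldn5, Adk or Cd164 rest on a few UMIs, and FT replicate 5 rests on 7 cells. Reaction order and suspension cannot be told apart, and the low-ribosomal cells lay mostly in second reactions.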

Other observations

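Genes of monoamine breakdown were read in Endothelial cells and were not confined to them. The list of serotonin and monoamine genes summed to 8.81 in Endothelial, 6.36 in AstroSub1 and 4.71 in Mossy cells. Maob lay at 3.58 UMIs per 10000 against 0.554 in other dorDG cells, and Maoa at 2.48 against 0.293. Maoa was 2.61, 2.13, 3.15 and 4.30 in FT and 2.19, 1.37, 1.09, 2.86 and 2.63 in Sham replicates, with overlapping groups. The serotonin transporter Slc6a4, the target of fluoxetine, had a UMI in 1.11% of the Endothelial cells, at 0.034 per 10000 against 0.037 in other cells. In the paired reactions the monoamine list was higher in the second reaction of 4 of 4 replicates (4.04 to 8.27 in the first and 7.32 to 14 in the second).

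Some basement membrane genes were above the pool of other dorDG cells, with Sparc at 12 (5.49 elsewhere), Igfbp7 at 5.52 (1.34 elsewhere) and Col4a1 at 2.1 (0.764 elsewhere). The basement membrane list summed to more in Mossy cells (49.3) than in Endothelial cells (32.3), and to 28.6 in Microglia2 cells. Of 8 basement membrane genes tested, 7 had a positive log2 difference between FT and Sham, beside 1881 of all 3731 genes tested. Their median was 0.17, and 0 reached an unadjusted p under 0.05. Among vasoactive genes, the nitric oxide synthase Nos3 lay at 2.33 (0.467 elsewhere) and the endothelin gene Edn1 at 0.051. The vasoactive list summed to 5.50 in Endothelial and to 8.47 in Mossy cells.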
